A study of Mus musculus with 26 samples.

Results

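Semaphorins, plexins, neuropilins, ephrins, Eph receptors, netrins, netrin receptors, Robo and Slit genes make up the guidance genes of oligodendrocyte progenitor cells (OPCs) and oligodendrocytes (OLs). They were taken by gene symbol, and this choice was made with earlier results of these data known. Of 10104 genes with a listed transcript in either cell type, 43 belonged to these families. Of the 43 genes, 31 were listed for OPCs, 41 for OLs and 29 for both, while 12 were listed for OLs alone and 2 for OPCs alone. Of all 10104, 8530 were listed for OPCs, 9751 for OLs and 8177 for both, so the longer OL list was shared by the transcripts at large. The mouse annotation holds 69 protein-coding genes with such symbols, and the other 26 were not analysed here. The listed genes comprised 12 of 20 semaphorins, 7 of 9 plexins, 2 of 2 neuropilins, 7 of 14 Eph receptors, 6 of 8 ephrins, 3 of 4 netrins, 4 of 5 netrin receptors, and 2 of 7 Robo and Slit genes.

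Guidance molecules tell a migrating cell or a growing process where to go. Semaphorins are secreted or membrane-bound ligands that signal through plexins, with neuropilins as binding subunits for the secreted class 3 members. Ephrins are membrane-tethered ligands of the Eph receptor tyrosine kinases, netrins are laminin-like cues read by Dcc and the Unc5 receptors, and Slits are read by Robo receptors. In the oligodendrocyte lineage these cues are known for steering OPC migration and for acting on process outgrowth and myelination.

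The decay of newly made mRNA was measured in 2 kinds of mouse culture, both of strain 129S/SvEv. OPCs had been derived from epiblast stem cells and were grown with bFGF and PDGFA, and no treatment for differentiation was given. OLs were made from OPCs, which the study first passaged without bFGF, in medium holding noggin, IGF-1, cyclic AMP, NT3 and thyroid hormone (T3), and had spent 40 h in it when labelling began. Both were labelled for 24 h with 5-ethynyl uridine (5-EU), a uridine analogue to which biotin can be coupled, and were then chased with uridine. Labelled RNA was pulled down and sequenced at 0, 1, 2, 4 and 6 h in 3 OPC replicates and 2 OL replicates, so each cell type was followed in 1 stem-cell-derived system in culture, and the study's staining shows that the OL cultures also keep some undifferentiated cells. Values are FPKM, that is fragments per kilobase of transcript scaled to the mapped fragments of a library, so levels of different genes can be set side by side per length.

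The read depth behind the values is unknown. Of 11 OL marker genes, 2 were listed in OPCs and 9 in OLs, and their summed 0 h level was 37.6 to 55.1 FPKM in the OPC replicates, 6192 FPKM in OL replicate 1 and 2837 FPKM in OL replicate 2. The OL replicates thus differed from each other in their OL markers. All 7 OPC marker genes were listed in both cell types, at 1536 to 1696 FPKM summed in OPCs and 1494 and 1285 FPKM in OLs. Most of this sum is Olig1 (1009 to 1079 FPKM in OPCs, 635.4 and 505.9 FPKM in OLs) and Olig2 (316.5 to 332.1 against 217.8 and 189.6 FPKM), which mark the whole lineage and were lower in both OL replicates. Gpr17 (5.01 to 6.61 FPKM in OPCs, 323.3 and 299.5 FPKM in OLs), Sox10 (4.07 to 25.4 against 111.1 and 89.0 FPKM) and Pdgfra (11.5 to 26.5 against 66.9 and 43.9 FPKM) were higher in both OL replicates than in any OPC replicate, and Cspg4 was lower (35.7 to 55.7 against 30.7 and 29.9 FPKM). Ptprz1 overlapped (97.7 to 254.6 against 109.2 and 127.4 FPKM). Astrocyte markers summed to 429.4 to 512.5 FPKM in OPCs (5 of 8 genes listed) and to 674.6 and 828.9 FPKM in OLs (7 of 8). Among them S100b (9.07 to 10.5 against 290.0 and 160.3 FPKM) and Slc1a2 (22.9 to 36.9 against 77.4 and 95.7 FPKM) were higher in both OL replicates, Slc1a3 was lower (179.3 to 223.5 against 95.5 and 154.6 FPKM), Aldoc and Gja1 overlapped, with Gja1 at 187.5 FPKM in OL replicate 2 and 40.0 FPKM in OL replicate 1, and Gfap and Aldh1l1 were listed in OLs alone, at 1.72 to 8.12 FPKM. Neuronal markers summed to 81.8 to 183.3 FPKM (2 of 7) and to 203.0 and 188.5 FPKM (3 of 7). Most of this sum is Map2 (64.4 to 170.1 against 175.3 and 162.6 FPKM). Tubb3 was at 13.25 to 17.4 against 24.65 and 24.54 FPKM, and Syt1 was listed in OLs alone, at 3.06 and 1.38 FPKM. Rbfox3, Snap25, Stmn2, Nefl and Aqp4 were not listed in either cell type, nor was any microglial, endothelial or pluripotency marker, and Cspg4, which OPCs also express, was the only pericyte marker listed. The part of mixed cell types in the results below was not tested, and in bulk samples fewer cells of a type and less RNA per cell cannot be told apart.

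The study asked how the codons for phenylalanine (UUU and UUC) and lysine (AAA and AAG) relate to mRNA stability, so the stretches that are richest in these codons are shown for 3 ephrins and 3 semaphorins described below. Each stretch is the first window of 10 codons with the most phenylalanine and lysine codons in its coding sequence, written 5′ to 3′ in DNA letters from GRCm38, with the phenylalanine (TTT, TTC) and lysine (AAA, AAG) codons in capitals. The windows lie at chrX:99145485-99145514 (plus strand) for Efnb1, chr8:8639261-8639290 (minus strand) for Efnb2, chr3:89316527-89316556 (minus strand) for Efna3, chr5:14225606-14225635 (plus strand) for Sema3e, chr19:44997345-44997374 (plus strand) for Sema4g and chr7:80213287-80213316 (plus strand) for Sema4b, all in coding exons.
Efnb1: atccgcTTCaccatcAAGTTCcaagagTTC
Efnb2: gtgAAATTCaccatcAAGTTTcaagaaTTC
Efna3: cacagccccatcAAGTTCtccgagAAGTTC
Sema3e: aacAAAatgtacTTTTTCTTTactgagAAG
Sema4g: ggtgatgatgacAAGatttatTTCTTCTTC
Sema4b: aggAAGcagcagtgcagcTTCAAGggcAAG
All 4 capitalised codons in each of the windows of Efnb1, Efna3, Sema4g and Sema4b are TTC or AAG, whereas 2 of 5 in the window of Efnb2 and 3 of 5 in that of Sema3e are TTT or AAA.

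The first comparison asked which guidance transcripts were more or less abundant in labelled RNA of OLs than of OPCs at the end of labelling. Most semaphorins that changed were higher in OLs, whereas most plexins and all 3 netrins that changed were lower. The 0 h values carry more digits in the files than the later ones and were read as not set to a spike-in, so they were taken to compare shares of each library's own labelled RNA. Of the 29 genes listed for both, 8 were higher in OLs (27.6%, against 13.8% of all 8177 transcripts tested) and 10 were lower (34.5%, against 15.8% of all), by limma on log2(FPKM + 1) with Benjamini-Hochberg adjustment over all transcripts. The median difference was −0.39 over the 29 genes and −0.01 over all transcripts. OL and OPC replicates did not overlap for 11 genes that were higher in OLs, against 28.0% of all transcripts, nor for 12 that were lower, against 31.4%. On the log2(FPKM + 1) scale a change of a gene near 1 FPKM is understated.

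**Figure D1:**
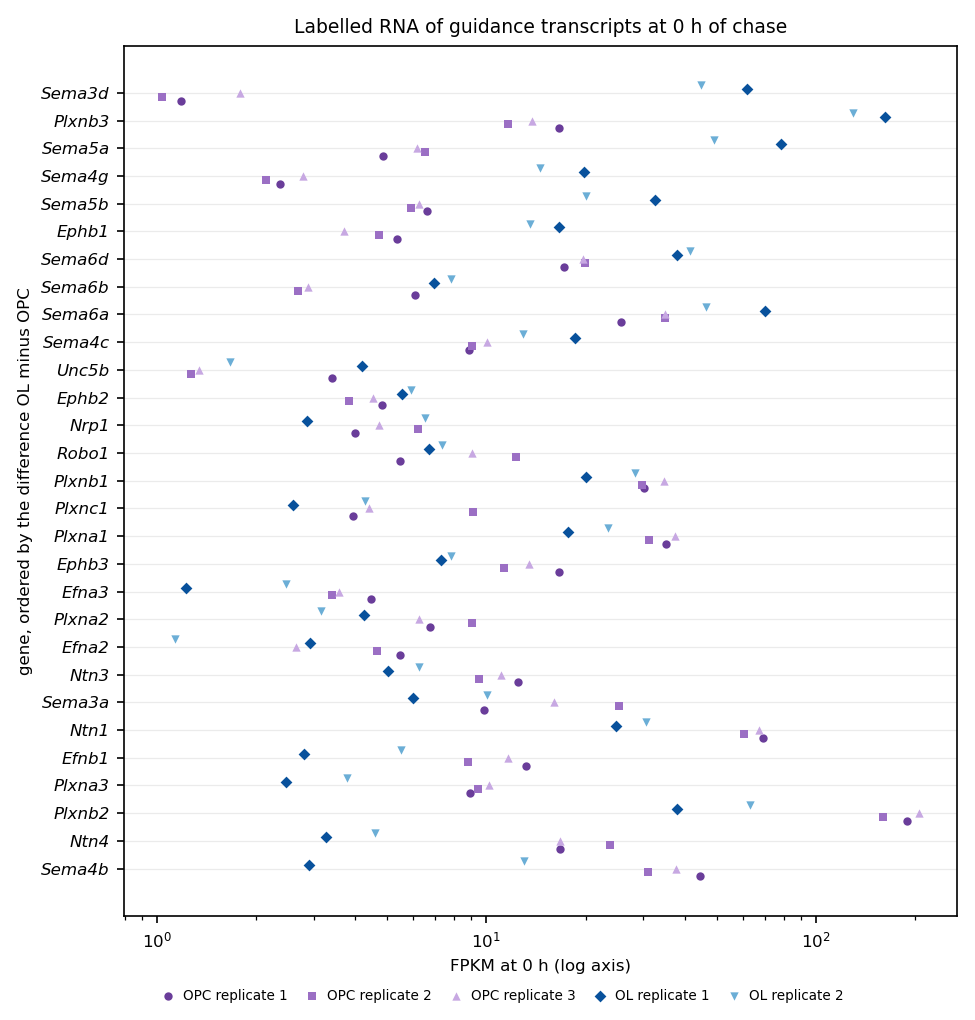
Labelled RNA at 0 h (FPKM, log axis) of the 29 guidance genes listed for both cell types, one point per replicate, ordered by the difference OL minus OPC. Sema3d (61.7 and 44.8 FPKM in OLs) and Plxnb3 (161.8 and 130.2) stand farthest above their OPC values, and Sema4b (2.90 and 13.0) and Ntn4 (3.25 and 4.61) farthest below.

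Among the semaphorins, 6 of 10 rose and 1 fell. Sema3d, a secreted class 3 ligand, was at 1.18, 1.04 and 1.79 FPKM in OPC replicates 1, 2 and 3 and at 61.7 and 44.8 FPKM in OL replicates 1 and 2. Its OPC values lay just above the 1 FPKM needed to be listed, and its OL values were among the highest of the group (log2 difference 4.53 ± 0.25 SE, adjusted p = 7.1e-05). Sema5a, a transmembrane ligand with thrombospondin repeats, was at 4.87, 6.51 and 6.17 FPKM in OPCs and at 78.5 and 49.0 FPKM in OLs (3.21 ± 0.27, adjusted p = 0.00025). Its paralogue Sema5b was at 6.59, 5.90 and 6.23 FPKM in OPCs and at 32.5 and 20.1 FPKM in OLs (1.88 ± 0.25, adjusted p = 0.0016). Both class 5 semaphorins were thus higher in each OL replicate than in any OPC replicate. Sema4g was at 2.37, 2.14 and 2.78 FPKM in OPCs and at 19.8 and 14.6 FPKM in OLs (2.40 ± 0.23, adjusted p = 0.00036).

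The transmembrane class 6 members, which bind plexin-A receptors, moved less. Sema6d was at 17.2, 20.0 and 19.6 FPKM in OPCs and at 37.8 and 41.4 FPKM in OLs (log2 difference 1.03 ± 0.21, adjusted p = 0.0094). Sema6a was at 25.6, 34.9 and 34.8 FPKM in OPCs and at 70.1 and 46.6 FPKM in OLs, and its difference of 0.84 ± 0.27 passed narrowly (adjusted p = 0.046). It no longer passed when any 1 replicate was left out, nor with the replicate number fitted as a block. Sema4b was the semaphorin that went down. It was at 44.5, 31.0 and 37.6 FPKM in OPCs and at 2.90 and 13.0 FPKM in OLs (−2.38 ± 0.48, adjusted p = 0.0091), so the groups lay apart although the OL replicates differed widely. Sema3a, a secreted repellent, had values of 9.85, 25.3 and 16.1 FPKM in OPCs and 5.98 and 10.1 FPKM in OLs, which overlapped, and did not pass (adjusted p = 0.098). Sema4c and Sema6b had differences of 0.68 ± 0.23 and 0.84 ± 0.31 that did not pass either (adjusted p = 0.059 and 0.076).

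Of the 7 plexins, the semaphorin receptors, 4 fell and 1 rose. Plxnb3, a receptor of Sema5a, rose from 16.7, 11.7 and 13.8 FPKM in OPCs to 161.8 and 130.2 FPKM in OLs (3.29 ± 0.24, adjusted p = 0.00016) and was the most abundant guidance transcript of OLs, with 146 ± 22.4 FPKM (SD, n = 2). Plxnb2, a receptor of class 4 semaphorins, was the most abundant in OPCs, with 185 ± 23.5 FPKM (SD, n = 3). It was at 189.2, 159.7 and 206.1 FPKM in OPCs and at 37.8 and 63.2 FPKM in OLs (−1.89 ± 0.27, adjusted p = 0.0022). The leading plexin-B transcript was therefore a different one in each cell type. Plxnb1, the remaining member of that subfamily, was at 30.1, 29.6 and 34.7 FPKM in OPCs and 20.0 and 28.2 FPKM in OLs, a difference of −0.39 ± 0.23 that did not pass (adjusted p = 0.24).

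The 3 listed plexin-A receptors, which serve class 3 and class 6 semaphorins, all fell. Plxna3 was at 8.93, 9.42 and 10.2 FPKM in OPCs and at 2.47 and 3.78 FPKM in OLs (−1.37 ± 0.23, adjusted p = 0.0042). Plxna1 was at 35.1, 31.1 and 37.5 FPKM in OPCs and at 17.7 and 23.4 FPKM in OLs (−0.73 ± 0.23, adjusted p = 0.044). For Plxna2 the values were 6.76, 9.06 and 6.25 FPKM against 4.27 and 3.16 FPKM (−0.82 ± 0.24, adjusted p = 0.037). The groups did not overlap for any of the 3, yet the call of Plxna1 was lost without OPC replicate 1 or 3 or either OL replicate, and that of Plxna2 without OPC replicate 2 or 3 or either OL replicate. Nrp1, the neuropilin co-receptor, was at 4.00, 6.21 and 4.72 FPKM in OPCs and at 2.86 and 6.5 FPKM in OLs, so its OL values spanned the OPC values.

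Of the 6 ephrins and Eph receptors listed for both cell types, 1 rose and 2 fell. Ephb1 was at 5.34, 4.72 and 3.69 FPKM in OPCs and at 16.7 and 13.6 FPKM in OLs and was the receptor that rose (1.53 ± 0.23, adjusted p = 0.0027). Ephb3 fell from 16.7, 11.4 and 13.5 FPKM to 7.28 and 7.79 FPKM (−0.78 ± 0.23, adjusted p = 0.039), while Ephb2 had a difference of 0.32 ± 0.21 that did not pass (adjusted p = 0.28). Efnb1, a transmembrane ligand of EphB receptors, was at 13.2, 8.79 and 11.7 FPKM in OPCs and at 2.79 and 5.52 FPKM in OLs (−1.28 ± 0.30, adjusted p = 0.015). The lipid-anchored ligands Efna2 and Efna3 were at 5.48, 4.66 and 2.65 FPKM and at 4.46, 3.40 and 3.56 FPKM in OPCs. Their OL values were 2.91 and 1.13 FPKM for Efna2 and 1.23 and 2.46 FPKM for Efna3, and neither difference passed (adjusted p = 0.11 and 0.053).

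All 3 netrins listed for both cell types fell. Ntn1, the founding attractant of the family and a known cue for OPC migration, was at 69.0, 60.6 and 67.1 FPKM in OPCs, the second highest mean of the group there, and at 24.7 and 30.6 FPKM in OLs (−1.22 ± 0.22, adjusted p = 0.0053). Ntn4, a basement-membrane netrin, fell from 16.8, 23.7 and 16.7 FPKM to 3.25 and 4.61 FPKM (−2.02 ± 0.25, adjusted p = 0.0011). Ntn3 fell from 12.5, 9.49 and 11.1 FPKM to 5.01 and 6.24 FPKM (−0.86 ± 0.23, adjusted p = 0.025). This call was lost without OPC replicate 3 or either OL replicate and with the replicate number as a block. The calls of Ntn1 and Sema6d were lost without OL replicate 1, that of Sema6d also without OL replicate 2, that of Efnb1 without OPC replicate 3 or OL replicate 1, and that of Ephb3 without any replicate but OPC replicate 2. With the block that of Ephb3 was lost as well. Unc5b, a netrin receptor, and Robo1, a Slit receptor, had differences of 0.38 ± 0.38 and −0.25 ± 0.31 that did not pass (adjusted p = 0.48 and 0.57). Of the 18 calls, 10 held under every alternative setting tried, namely those of Sema3d, Sema5a, Sema5b, Sema4g, Sema4b, Plxnb3, Plxnb2, Plxna3, Ephb1 and Ntn4. Without OL replicate 1, the replicate with the higher OL marker sum, 6 genes were higher and 4 lower, and the shares of all transcripts also fell, to 5.12% and 5.83%.

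The 14 genes listed for 1 cell type allow no fold change, since the authors left out transcripts under 1 FPKM at 0 h or at 0 FPKM early in the chase, and which of these applied is not known for any of them. The highest of the 12 listed for OLs alone was Sema4d, a transmembrane ligand of Plxnb1, at 61.8 and 33.5 FPKM in OL replicates 1 and 2. Sema3e, the ligand of plexin-D1, was at 26.5 and 10.4 FPKM. Epha4 was at 11.4 and 11.9 FPKM, Unc5c at 7.87 and 6.69 FPKM and Ephb4 at 3.55 and 6.29 FPKM. The remaining 7, Efna4, Ephb6, Epha3, Efnb2, Unc5a, Slit2 and the netrin receptor Dcc, lay between 1.03 and 3.49 FPKM and so close to the listing limit. In OPCs alone, Nrp2, the second neuropilin, was at 5.05, 7.75 and 6.58 FPKM and Efna5 at 2.25, 1.62 and 2.02 FPKM. Dcc, the classical netrin attraction receptor, was thus at 1.38 and 1.08 FPKM in OLs and not listed in OPCs, while Ntn1 was at 24.7 FPKM or above in every replicate.

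The chase asks how long the labelled mRNAs last, and here the values after 0 h are relative to spike-in RNA. By limma on log2(FPKM + 1) against hours, 29 of 31 guidance transcripts fell in OPCs, where 81.7% of all transcripts did, and 26 of 41 fell in OLs, where 68.4% of all did. None rose in either cell type, also at an unadjusted p under 0.05, and few of all transcripts rose by limma (4.31% in OPCs and 1.5% in OLs after adjustment). Relative to the median transcript of each library, in place of the spike-ins, 12 of the 31 fell and 10 rose in OPCs, among them Plxnb2 and Ntn1 with rising slopes of 0.43 and 0.38 log2 units per h, where 29.9% of all transcripts fell and 32.3% rose. In OLs 6 of the 41 fell and 7 rose on that scale, where 23.7% of all fell and 28.3% rose. Plxnb2 and Robo1 were the 2 that did not pass in OPCs (slopes of −0.04 and −0.11 log2 units per h, adjusted p = 0.33 and 0.097). In OPCs the steepest slopes were those of Sema4b (−0.66), Plxna1 (−0.64), Ntn4 (−0.59) and Ephb3 (−0.58). The steepest in OLs were those of Epha4 (−0.41), Sema4c (−0.38) and Unc5c (−0.34), while those of Plxnb2 (0.02), Plxnb3 (0.01) and Robo1 (0.01) were near 0. At 6 h, 8, 10 and 5 of the 31 transcripts were listed at 0 in OPC replicates 1, 2 and 3, and 1 of 41 in each OL replicate, while 15.7%, 21.6% and 16.4% of all OPC transcripts and 4.08% and 0.790% of all OL transcripts were listed at 0 there.

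**Figure D2:**
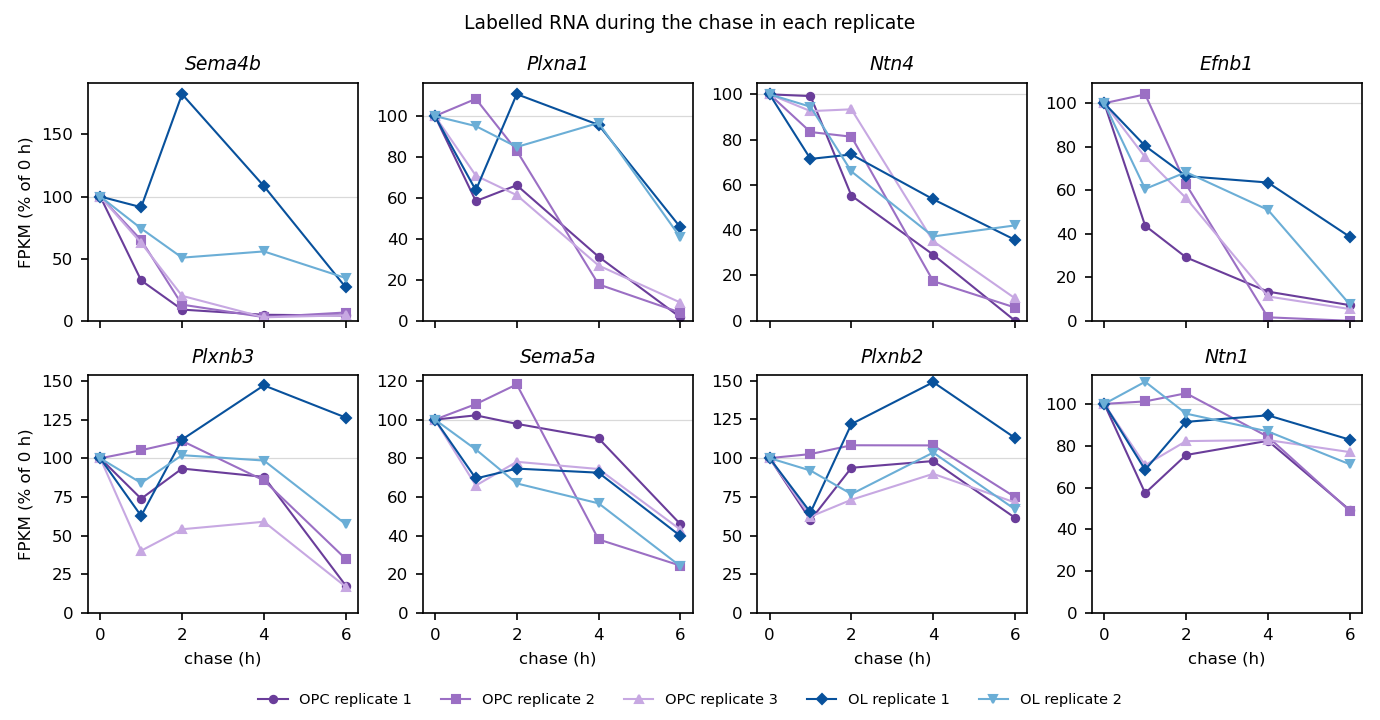
FPKM as a percent of the replicate's own 0 h value against hours of chase, one line per replicate (OPC replicates purple, OL replicates blue), for 8 guidance transcripts, with a separate vertical scale in each panel. By 6 h, Plxna1 is at 1.68% to 8.91% in OPCs and at 45.7% and 40.7% in OLs, while Plxnb2 is at 61.5% or above in every replicate.

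Plxna1, Sema4b and Ntn4 had the 3 largest slope differences between the cell types. At 6 h, 1.68%, 4.00% and 8.91% of the 0 h level of Plxna1 remained in OPC replicates 1, 2 and 3, against 45.7% and 40.7% in OL replicates 1 and 2. For Sema4b the values were 4.27%, 6.67% and 4.42% in OPCs and 26.9% and 34.4% in OLs. In OPCs Sema4b had already dropped to 9.01%, 13.0% and 20.1% at 2 h, when OL replicate 1 stood at 182.4% and OL replicate 2 at 50.8%. The high value of OL replicate 1 is 5.29 FPKM over a 0 h value of 2.90 FPKM. Ntn4 was listed at 0 in OPC replicate 1 at 6 h and was at 5.85% and 9.91% in OPC replicates 2 and 3, against 35.7% and 42.1% in OLs.

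The slope differed between OLs and OPCs for 12 of the 29 shared guidance transcripts (41.4%), each of which fell more slowly in OLs, against 32.1% of all 8177 transcripts in that direction. None fell faster in OLs by limma after adjustment, against 0.391% of all transcripts, and 1 did at an unadjusted p under 0.05 (Sema3d, −0.11 ± 0.05 log2 units per h). The 12 were Plxna1 (difference 0.49 ± 0.09 log2 units per h, adjusted p = 0.00049), Sema4b (0.48 ± 0.12, adjusted p = 0.0057), Ntn4 (0.42 ± 0.07, adjusted p = 0.00049), Efnb1, Efna3, Ephb3, Plxnb3, Plxna2, Sema5b, Efna2, Nrp1 and Sema6d, the last 9 with differences of 0.20 to 0.32. All 3 ephrins listed for both cell types were among them. The median difference was 0.13 over the 29 and 0.14 over all transcripts, so a slower fall in OLs was shared by the transcripts at large. With each time course reduced to 1 slope per replicate, 10 passed as slower, against 23.7% of all transcripts, and the calls of Nrp1 and Sema6d were lost. Plxna1 was the only one of the 12 that passed under every alternative, and Plxna1 and Ntn4 the only ones that passed whichever replicate was left out. The count was 2 without OL replicate 1, 6 without OL replicate 2 and 7 without OPC replicate 2, where 9.06%, 11.9% and 20.9% of all transcripts passed as slower.

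**Figure D3:**
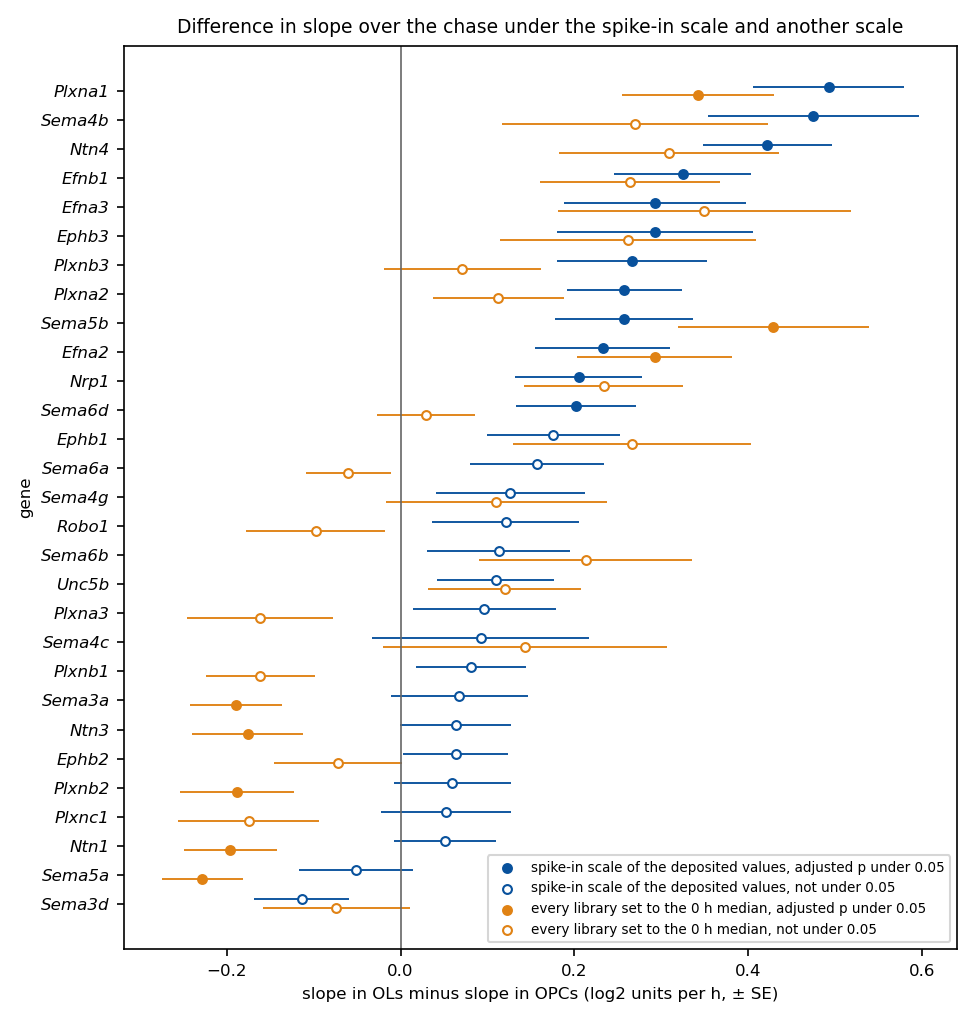
Slope in OLs minus slope in OPCs (log2 units per h, points with SE bars) for the 29 shared guidance transcripts, under the deposited spike-in scale (blue) and after each library was set so that its median transcript kept its 0 h level (orange). Filled points passed at an adjusted p under 0.05. The blue points reach 0.49 for Plxna1, and 5 orange points on the left, from Sema5a (−0.23) to Ntn3 (−0.18), pass in the other direction.

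Because 1 scale factor acts on every transcript of a library, the slopes were also taken relative to the median transcript, which moved the median difference over all transcripts from 0.14 to −0.02. On that scale Sema5b (0.43), Plxna1 (0.34) and Efna2 (0.29) had higher slopes in OLs than in OPCs. Efna2 started at 2.91 and 1.13 FPKM in OLs. At 6 h it was at 9.70% and 0% of these levels, against 0% in each OPC replicate. Its half-lives overlapped (0.508, 0.872 and 1.96 h in OPCs, 1.38 and 2.20 h in OLs). On the log2(FPKM + 1) scale a fall of a transcript near 1 FPKM is understated. Sema5a (−0.23), Ntn1 (−0.20), Sema3a (−0.19), Plxnb2 (−0.19) and Ntn3 (−0.18) had lower slopes in OLs than in OPCs. Ntn1, Plxnb2 and Ntn3 rose on that scale in both cell types. Their slopes were 0.38, 0.43 and 0.28 in OPCs and 0.19, 0.25 and 0.11 in OLs. Sema3a and Sema5a rose in OPCs (0.16 and 0.21) and did not pass in OLs (−0.02 and −0.005). Over all transcripts, 940 passed with a higher slope in OLs and 1813 with a lower one. Ntn1, Sema3a, Plxnb2 and Ntn3 had differences above 0 on the spike-in scale, and Sema5a was below 0 on both (−0.05 on the spike-in scale). All 12 transcripts called on the spike-in scale stayed above 0. Of the 9 that no longer passed, Efna3 (0.35), Ntn4 (0.31), Sema4b (0.27), Efnb1 (0.26), Ephb3 (0.26) and Nrp1 (0.23) kept differences above 0.2, while Plxna2 (0.11), Plxnb3 (0.07) and Sema6d (0.03) were lower.

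The half-lives, fitted by the authors to each replicate and limited to 6 h, gave another view of the same chase, on 29 guidance transcripts. Plxna1, Efna3 and Sema4b were longer-lived in OLs (10.3% of 29, against 3.39% of all 8112 transcripts tested) and none was shorter-lived, against 0.148% of all, by limma on log2 half-life. At an unadjusted p under 0.05, 11 were longer and 0 shorter, against 22.2% and 0.801% of all transcripts. These counts move with the scale of the libraries. With half-lives centred on the median of each replicate, 2 were longer and 8 shorter at an unadjusted p under 0.05, against 3.00% and 36.5% of all transcripts, and after adjustment by limma 0 of the 29 and 1 of all 8112 transcripts passed. With the replicate number as a block, none of the 29 and none of the 8112 passed by limma (adjusted p = 0.19 for Plxna1, 0.16 for Efna3 and 0.25 for Sema4b). At an unadjusted p under 0.05, 11 of the 29 were longer under the block, against 18.5% of all transcripts. Plxna1 had half-lives of 2.39, 1.96 and 2.12 h in OPC replicates 1, 2 and 3 and stood at the 6 h limit in both OL replicates (log2 difference 1.48 ± 0.10, adjusted p = 0.025), so its OL half-life is a lower bound. Efna3 was at 1.96, 1.96 and 1.49 h in OPCs and at the limit in both OL replicates (1.75 ± 0.16, adjusted p = 0.038), on transcript levels of 1.23 to 4.46 FPKM at 0 h. As with Plxna1, the OL half-life is bounded by the limit. The SE of Efna3 rests on OL values that are equal at the limit and on 2 OPC values at 1.96 h, a value that the fit returned for many transcripts. It is thus set in part by the fit. The SE of Plxna1 likewise rests on OL values equal at the limit and on the 1.96 h of OPC replicate 2. Sema4b was at 0.616, 0.786 and 0.864 h in OPCs and at 6 and 3.90 h in OLs (2.69 ± 0.28, adjusted p = 0.043). The call of Plxna1 held only without OPC replicate 1 among the fits that leave out 1 replicate, that of Efna3 only without OPC replicate 3, and that of Sema4b in none of them. None of the 3 held under every alternative, and no guidance transcript passed without OPC replicate 2 or without OL replicate 1.

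**Figure D4:**
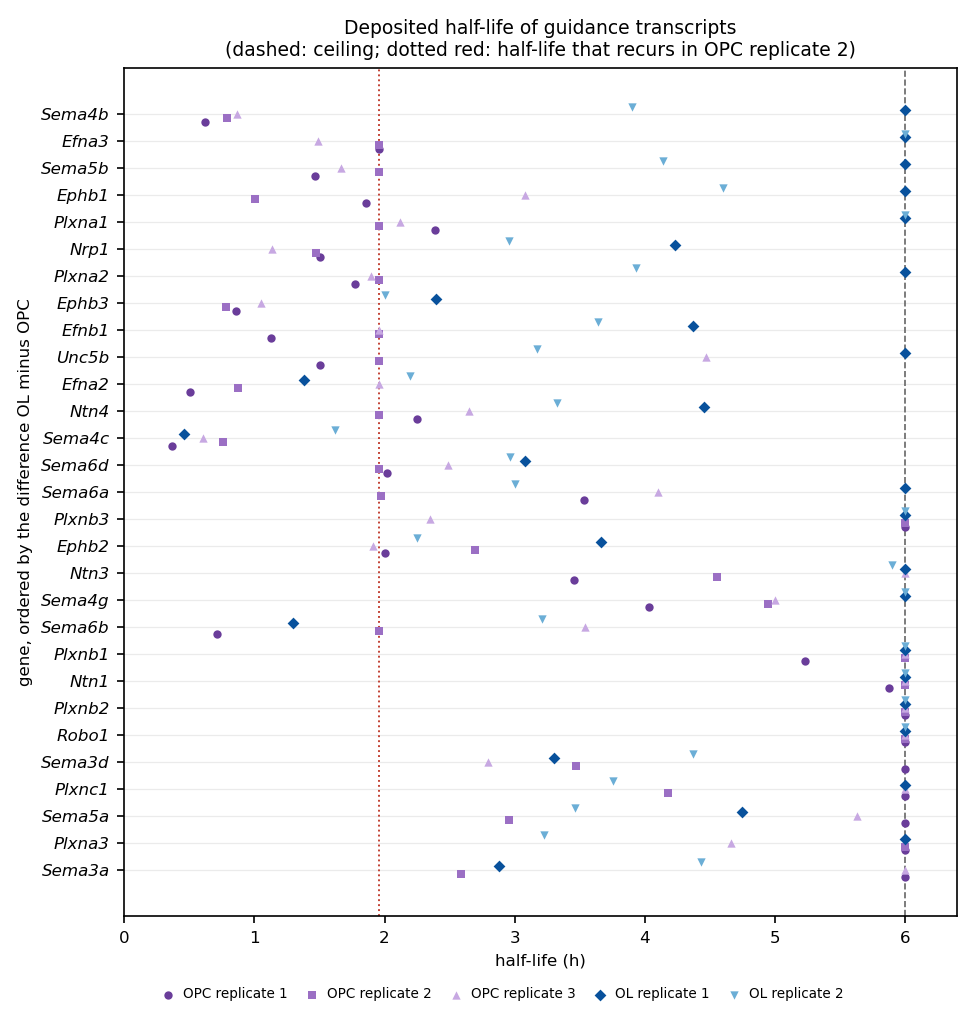
Deposited half-life (h) of the 29 guidance transcripts in each replicate, ordered by the difference OL minus OPC, with the 6 h limit dashed and the value of 1.96 h dotted. The OL points of Plxna1 and Efna3 sit on the limit, Plxnb2 and Robo1 sit on it in all 5 replicates, and OPC replicate 2 places a column of points on the dotted line.

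The value of 1.96 h recurred in OPC replicate 2. It was the half-life of 25.9% of all transcripts there. The other OPC replicates had it for 2.46% and 7.83% of transcripts, while OL replicate 1 had it for 0.629% and OL replicate 2 for 1.64%. Most transcripts with this value had 1 and 2 h levels above the fitted curve and 4 and 6 h levels below it. This was so for 99.6% of them in OPC replicate 2 and for 87.6% and 96.8% in OPC replicates 1 and 3. In OL replicates 1 and 2 it was so for 77.05% and 85.5%. Of 31 guidance transcripts, 11 had this value in OPC replicate 2, Plxna1 and Efna3 among them, and 1 and 2 had it in OPC replicates 1 and 3. With half-lives refitted by least squares, an alternative chosen after seeing the data, no guidance transcript and 0.296% of all transcripts passed by limma, and 7 were longer at an unadjusted p under 0.05, against 17.9% of all transcripts. The refitted differences were 1.36 ± 0.14 for Plxna1, 1.28 ± 0.29 for Efna3 and 2.38 ± 0.42 for Sema4b (adjusted p = 0.086, 0.17 and 0.14).

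For 12 of the 29 transcripts (41.4%) each OL half-life was longer than any OPC half-life, against 35.9% of all transcripts. Ephb3, at 0.859, 0.783 and 1.05 h in OPCs and 2.40 and 2.00 h in OLs, Nrp1, at 1.5, 1.47 and 1.14 h against 4.23 and 2.96 h, and Plxna2, at 1.78, 1.96 and 1.90 h against 6 and 3.94 h, were among them and did not pass (adjusted p = 0.059, 0.084 and 0.072). Sema5b was at 1.47, 1.96 and 1.67 h in OPCs and at 6 and 4.14 h in OLs (1.57 in log2, adjusted p = 0.068). Over the 29, OPC replicates had medians of 2.25, 1.96 and 2.80 h, OL replicate 1 had its median at the limit and OL replicate 2 at 3.90 h, and 8, 6 and 7 transcripts were at the limit in OPCs against 17 and 8 in OLs. The OL replicates thus differed widely, with 58.6% and 27.6% of these transcripts at the limit, while over all transcripts the shares were 42.3% and 38.8% in OLs and 24.5%, 25.3% and 31.6% in OPCs. The median log2 difference was 0.47 over the 29 and 0.37 over all transcripts. The lowest differences were −0.34 ± 0.53 for Sema3a, −0.33 ± 0.34 for Plxna3 and −0.20 ± 0.42 for Sema5a, none of which passed (adjusted p = 0.81, 0.71 and 0.92). With the libraries set to 1 mean decay curve, Sema3a (−1.17, adjusted p = 0.014) and Sema5a (−0.79, adjusted p = 0.049) did pass as shorter-lived in OLs.

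The guidance transcripts spanned nearly the whole range of the fit. Of the 29 shared transcripts, Sema4c had the shortest half-life in each replicate, with 0.363, 0.760 and 0.603 h in OPCs and 0.459 and 1.62 h in OLs, and Plxnb2 and Robo1 were at the 6 h limit in all 5 replicates. Among genes listed for OLs alone, Epha4 (1.26 and 1.35 h), Unc5c (1.73 and 1.75 h) and Epha3 (1.51 and 2.22 h) were short-lived, Sema3e (2.62 and 2.76 h) and Sema4d (3.16 and 2.42 h) intermediate, and Slit2, a Robo ligand, was at the limit in both OL replicates. Ligands and receptors were found at both ends.

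The codons of the 43 guidance transcripts were then set beside these values. UUU made up a median of 37.8% of their phenylalanine codons, against 44.4% in all listed transcripts, and AAA 24.4% of their lysine codons, against 37.5%. Their coding sequences were longer, with a median of 2838 bases against 1404. Members differed widely. In Efnb1, none of 10 phenylalanine codons is UUU and 2 of 24 lysine codons are AAA, whereas in Efnb2, the related ligand listed for OLs alone, the numbers are 4 of 9 and 10 of 21. Efna3 holds 1 UUU of 9 phenylalanine codons and 0 AAA of 10 lysine codons, and Plxna1 20 of 67 and 15 of 90. Sema4b combines 19 UUU of 40 phenylalanine codons with 5 AAA of 31 lysine codons. Sema3e is at the other end, with 24 UUU of 36 phenylalanine codons and 25 AAA of 48 lysine codons, as its printed window with the codons TTT and AAA shows.

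**Figure D5:**
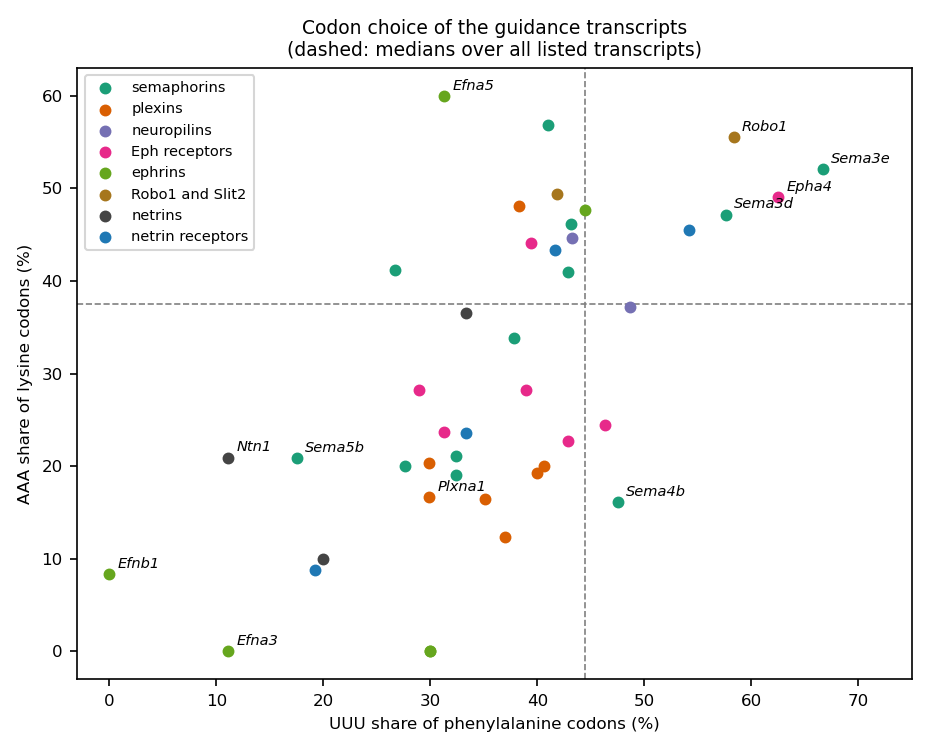
Share of UUU among phenylalanine codons (percent, horizontal) and of AAA among lysine codons (percent, vertical) in the 43 guidance transcripts, one point per gene, coloured by family, with dashed lines at the medians of all listed transcripts (44.4% and 37.5%). Most members lie left of and below these medians, with Efnb1 and Efna3 at the lower left and Sema3e and Robo1 at the upper right.

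Across the guidance transcripts, UUU share and half-life had Spearman's rho of 0.20, −0.155 and −0.0138 over 31 transcripts in OPCs, and of −0.207 and −0.237 over 40 transcripts in OLs. For AAA share rho was 0.273, 0.0753 and 0.188 in OPCs and −0.268 and −0.249 in OLs. Over all listed transcripts, rho for UUU share was 0.0502, −0.0457 and 0.0479 in OPCs and −0.212 and −0.0717 in OLs, and for AAA share 0.0262, −0.0823 and 0.0384 in OPCs and −0.263 and −0.119 in OLs. These are descriptions across transcripts that share libraries, scale factors and base composition, over gene sets that differ between the cell types. All are weak. Epha4 illustrates a short-lived OL transcript in the upper right of the codon plot, and Robo1, with 58.3% UUU and 55.6% AAA, a transcript of like codon choice at the 6 h limit.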

How the data were processed

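Labelled RNA was measured in 15 OPC libraries (3 replicates, 5 times) and 10 OL libraries (2 replicates, 5 times), which the study calls biological replicates. It states that the OL replicates correspond to OPC replicates, but not to which numbers. The OPC library made without biotin was not analysed here. Per the labels' processing notes the authors used HISAT2 2.1.0 and StringTie 1.3.5 on GRCm38. The deposited FPKM values cover transcripts that the authors kept for at least 1 FPKM at 0 h and values above 0 early in the chase. The authors describe scaling every time point to the reads of spike-in RNA. In the files the 0 h columns carry up to 10 significant digits and later columns at most 6, so the scale was read as relative to 0 h, with the 0 h columns unscaled. The half-lives, which the authors deposited in hours, are exponential fits by least absolute deviations with a limit of 6 h. Limits listed just above it were set to 6 h.

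Here log2 half-lives, log2(FPKM + 1) at 0 h and slopes over the chase (with an intercept for each replicate) were fitted with limma 3.58.1 (R 4.3.3) across all transcripts, adjusted by Benjamini-Hochberg, with 0.05 as threshold. Tables and figures were made with Python 3.11.15, pandas 2.3.3 and matplotlib 3.10.9. The half-life, 0 h and slope-difference fits were tried on simulated data, and the slopes within each cell type were not. The simulated half-lives had no 6 h limit. FPKM hold no counts, so depth is unknown, no counting error is given, and a 0 is a listed value only. Codons, 3′ ends and coordinates came from GENCODE M21 on GRCm38, to which all 10104 transcripts matched by identifier.

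Named are members past the threshold in a comparison (at most the 12 largest in each), the 3 largest and smallest changes, the 5 highest levels in each cell type, members listed for 1 cell type, and a fixed list of known cues. A list of downstream signalling genes is not reported here. Ntn3, Sema4c and Sema6b were named after their values were seen. The members and gene lists were chosen with earlier results of these data known. Alternatives were the replicate block, 1 slope per replicate, other scales, pseudocounts of 0.1 and 5, filters (at least 5 FPKM on average), refitted half-lives, leaving out the 6 h libraries and each replicate. A least-squares refit and a filter of 3 FPKM in each library were added after seeing the data.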

Additional observations from a re-analysis of the deposited data

Results flagged for a closer look

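For 12 of 29 guidance transcripts (41.4%) a test of the difference in slope between the cell types passed (limma, adjusted over all transcripts). Each had a slower fall of labelled RNA in OLs than in OPCs, as had 32.1% of all transcripts. The differences, in log2 units per h, were 0.49 for Plxna1 (slopes of −0.64 in OPCs and −0.14 in OLs), 0.48 for Sema4b (−0.66 and −0.18), 0.42 for Ntn4 (−0.59 and −0.17), 0.32 for Efnb1 (−0.55 and −0.22), 0.29 for Efna3 (−0.35 and −0.05) and 0.29 for Ephb3 (−0.58 and −0.29). They were 0.27 for Plxnb3 (−0.25 and 0.01), 0.26 for Plxna2 (−0.39 and −0.14), 0.26 for Sema5b (−0.52 and −0.26), 0.23 for Efna2 (−0.42 and −0.19), 0.20 for Nrp1 (−0.39 and −0.19) and 0.20 for Sema6d (−0.50 and −0.30). With libraries set to the median transcript, 3 of these, Plxna1, Sema5b and Efna2, passed in the same direction, as did 11.5% of all transcripts. The other 9 stayed above 0 without passing, from 0.03 for Sema6d to 0.35 for Efna3. On that scale Sema5a, Ntn1, Sema3a, Plxnb2 and Ntn3 passed in the other direction, as did 22.2% of all transcripts.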

How the results depend on the processing

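The 3 half-life calls became 0 under the replicate block, 0 with each replicate centred on its median, 0 without the 6 h libraries and 0 by least squares, settings under which 0, 1, 32 and 24 of all 8112 transcripts passed, against 287 as reported. They became 5 (Plxna1, Efna3 and Ephb3 longer, Sema3a and Sema5a shorter) with libraries set to the mean decay curve, and 7 of 22 transcripts with at most 2 half-lives at the limit (14.0% of all transcripts so filtered, against 3.54% as reported). They ranged from 0 to 2 when 1 replicate was left out. Calls over all transcripts moved as well and are given as shares in parentheses. The 18 calls at 0 h (29.6%) ranged from 10 to 17 when 1 replicate was left out (11.0% to 31.9%) and were 14 under the replicate block (23.6%), which lost Ephb3, Ntn3, Plxna1, Plxna2 and Sema6a and gained Efna2. The 12 calls of a slope difference (32.5%) became 7 without the 6 h libraries (19.8%), 10 with no replicate block (28.0%), and 2 to 11 when 1 replicate was left out (9.12% to 33.3%). The 29 falls in OPCs (81.7%) became 19 without the 6 h libraries (67.4%) and 22 calls (10 up and 12 down, 62.2%) with libraries set to the 0 h median. The 26 in OLs (68.4%) became 15 without the 6 h libraries (46.7%) and 13 (7 up and 6 down, 52.0%) with libraries set to the 0 h median. Without either OL replicate the OL slopes rest on 1 time course, so no count is given for those fits. The cause was not tested.

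With replicates centred, 13 of the 29 half-life differences went from above to below 0, and 6 did on the mean decay curve, where 88 of all transcripts passed as longer and 195 as shorter. Among the 13 were Ntn4 (−0.14), Sema4g (−0.53) and Sema6d (−0.41), and among the 6 were Sema4g (−0.33) and Sema6d (−0.016). Without the 6 h libraries Sema6d (−0.88) went below 0 and Plxnc1 and Sema3d went above, as did Sema3d by least squares. When 1 replicate was left out half-life differences ranged from −0.77 to 0.12 for Plxna3 and from −0.52 to 0.032 for Sema5a, and the 0 h differences ranged from −0.61 to 0.34 for Nrp1 and from −0.10 to 0.86 for Unc5b. The block was tried because the study matches both OL replicates to OPC replicates, without giving their numbers. Across transcripts, deviations of samples with the same number correlated at −0.00162 and −0.105 for half-lives and at 0.0589 and 0.0102 for 0 h levels, while the median level at 1 h was 68.1% and 64.9% of 0 h in the libraries numbered 1 and 95.4% and 96.5% in those numbered 2. Whether the numbers pair the samples is thus not settled. Of the values for single named genes, 148 of 193 for half-lives, 314 of 360 at 0 h and 79 of 120 for the slope difference kept direction and side of the threshold, while 27, 35 and 41 lost the threshold.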

Other observations

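Within 3′ untranslated regions, the AU-rich nonamer UUAUUUAUU, which was searched on the transcribed strand and overlaps the pentamer AUUUA, was found in 3 of 43 guidance transcripts (6.98%, against 7.77% of all listed transcripts), and AUUUA in 76.7% (against 69.1%). It is shown here for Robo1 (chr16:73046058-73046086, plus strand) and Epha3 (chr16:63543749-63543777, minus strand), in DNA letters from GRCm38 with the nonamer in capitals.
Robo1: ttttgtcataTTATTTATTaaaaatgttc
Epha3: tttatagataTTATTTATTtctcgcaaca
Robo1 stood at the 6 h limit in all 5 replicates, and Epha3 had half-lives of 1.51 and 2.22 h in OLs. The remaining transcript with a match, Sema6a, had 3.53, 1.97 and 4.10 h in OPCs and 6 and 3.00 h in OLs. The match is a description of letters only.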
